A study of Mus musculus with 2 samples.

Results

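The genes described here encode the channels and pumps that move calcium across the membranes of pancreatic islet cells, and the Trp cation channels. Members were all genes whose symbol begins with Cacn, Ryr, Itpr and a digit, Atp2a, Atp2b, Stim, Orai, Trpc, Trpm or Trpv, which gave 67 of the 38924 genes in the deposited files. The rule uses names alone and no measured value. It also takes in a few genes that are not channels or pumps, such as Trpc4ap, which encodes a partner of Trpc4 and a substrate receptor of a ubiquitin ligase, and the antisense RNA gene Itpr3os.

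RNA was sequenced from islets of mice of the wild-derived castaneus strain CAST/EiJ (CAST) and of C57BL/6J (B6), the strain behind the mouse reference genome. All mice were male, 10 weeks old, fed standard chow and otherwise untreated, and their islets were released with collagenase, purified on a gradient and picked by hand in a buffer with glucose. Each strain gave 1 library, made from 250 islets out of a pool of 2 mice, so no replicate error can be had, no difference was tested, and every comparison is between these 2 libraries. The libraries held 104324669 expected counts (CAST) and 76600970 (B6).

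In beta cells, glucose metabolism closes potassium channels, the membrane depolarises, and voltage-gated calcium channels open and trigger insulin release. Pumps of the SERCA type return calcium to the endoplasmic reticulum, pumps of the plasma membrane expel it, and IP3 and ryanodine receptors release it from the reticulum again. Stim proteins sense an emptied reticulum and open Orai channels, and several Trp channels add depolarising cation currents.

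Levels are given as TPM (transcripts per 1000000, which corrects for transcript length) and differences as the log2 ratio of counts (CAST over B6) after scaling with TMM factors, with a 95% interval in parentheses that covers counting error alone, because sequenced reads need not come from separate molecules. The scales differ: over all genes with 100 or more counts the median log2 ratio was 0.02 on the scaled counts and -0.26 on TPM with 1 added, so a gene can have fewer TPM in CAST and a ratio above 0. Both libraries were islet RNA by their markers. The summed level of 7 beta cell markers was 556551 TPM in CAST and 488696 TPM in B6, mostly Ins2 (477729 TPM in CAST, 404421 TPM in B6). On scaled counts 6 of the 7 were above a log2 ratio of 0. On TPM, Ins1, Ins2 and Slc2a2 were higher in CAST, and Iapp, Mafa, Nkx6-1 and Ucn3 lower. No marker of the alpha, beta, delta or acinar lists was at 0 in either library. The libraries were not alike in other cell types. Alpha cell markers summed to 38040 TPM in CAST and 62964 TPM in B6, with 4 of 5 below a log2 ratio of 0, and delta cell markers to 3630 TPM in CAST and 8524 TPM in B6, with 4 of 4 below 0. Acinar markers summed to 15344 TPM in CAST and 4971 TPM in B6, with 7 of 9 at least 2-fold higher in CAST, and stellate cell and fibroblast markers to 47.5 TPM in CAST and 22.8 TPM in B6, with 5 of 7 at least 2-fold higher in CAST. Duct markers summed to 62.4 TPM in CAST and 94.3 TPM in B6, a sum made mostly of Krt7 (54.0 TPM in CAST, 92.0 TPM in B6), while 3 of the 4 with 100 or more counts were above a log2 ratio of 0 and 2 at least 2-fold higher in CAST. Endothelial markers summed to 184 TPM in CAST and 198 TPM in B6, with 5 of 6 above 0. Pericyte markers summed to 39.6 TPM in CAST and 48.2 TPM in B6, with 4 of 5 above 0, and leukocyte markers to 11.2 TPM in CAST and 16.4 TPM in B6, with 3 of 5 above 0. What part these cell types had in any difference described here was not tested, and in bulk RNA fewer cells of a type and less RNA per cell cannot be told apart.

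Summed together, the calcium genes took a smaller share of counts in CAST than in B6, with most of these counts on the SERCA genes. On that scale the median of all genes with 100 or more counts was also lower in CAST. Members past 2-fold were about as frequent as among all genes, and were of low level. Of the 67 members, 32 reached 1 TPM in CAST (47.8%) and 33 in B6 (49.3%), against 32.2% and 32.9% of all genes, and the 32 of CAST were all among the 33 of B6. Summed over both libraries, 47 members had at least 100 counts, and of these 2 were at least 2-fold higher in CAST (4.26%, against 7.18% of all genes with that many counts) and 4 at least 2-fold higher in B6 (8.51%, against 5.99% of all genes). None of these 6 reached 1 TPM in both libraries. The remaining 41 (87.2%) lay within 2-fold, as did 86.8% of all genes. The median log2 ratio of the 47 was -0.14, against 0.02 for all genes, and 29 of them (61.7%) were below 0, against 48.3% of all genes. Together the members held 0.364% of counts in CAST (Clopper-Pearson 0.363 to 0.366) and 0.458% in B6 (0.456 to 0.459). These are shares of total counts. With total counts as scaling the median log2 ratio was -0.14 for all genes and -0.29 for the 47 members. The other 20 members had under 100 counts, and 3 of these, Cacng6, Trpc5os and Trpv5, had none in either library.

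**Figure D1:**
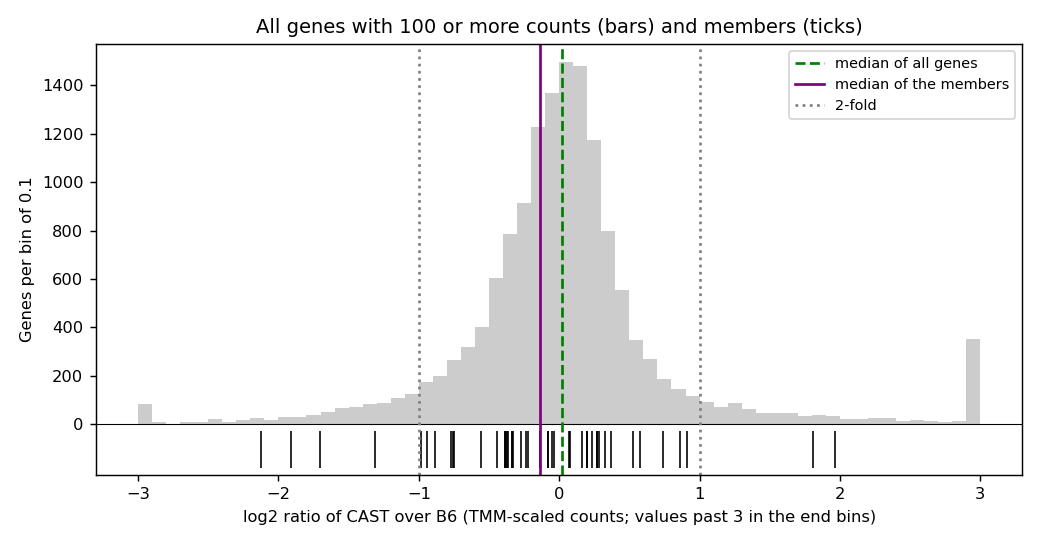
Number of genes per bin of the log2 ratio (CAST over B6) for all genes with 100 or more counts (bars) and the 47 members that passed the same filter (ticks below 0 on the vertical axis), with dotted lines at 2-fold. The median of the members (-0.14) lies left of the median of all genes (0.02), and 41 of 47 members lie within 2-fold.

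The highest levels belonged to the pumps that load the endoplasmic reticulum. Atp2a2, the SERCA pump found in nearly all cells, had 277.5 TPM in CAST and 426.7 TPM in B6. Atp2a3, a SERCA pump of lower calcium affinity known from beta cells, had 190.0 TPM in CAST and 333.4 TPM in B6. These genes ranked first and second of the members in both libraries and made up 50.9% of the members' summed TPM in CAST and 59.4% in B6. The log2 ratio was -0.27 (-0.29 to -0.26) for Atp2a2 and -0.38 (-0.39 to -0.37) for Atp2a3. Atp2a1, the pump of fast skeletal muscle, had 6 counts in CAST and 5 in B6. Of 4 skeletal muscle markers, Myh4 and Tnnt3 were at 0 in both libraries. Ckm had 3 counts in CAST and 2 in B6, and Acta1 had 122 in CAST and 73 in B6.

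Both SERCA genes make transcripts that differ near the end of the protein. Atp2a2-201 encodes the long, widely expressed form with an extra membrane segment, and Atp2a2-202 the short form of heart and slow muscle. Their coding ends are shown because the share of each form could be read from them (GRCm38, chr5:122457154-122457302 and chr5:122454294-122454304, minus strand, 5′ to 3′, with capitals for the bases that only 1 of the forms has after 20 shared coding bases).
Atp2a2-201: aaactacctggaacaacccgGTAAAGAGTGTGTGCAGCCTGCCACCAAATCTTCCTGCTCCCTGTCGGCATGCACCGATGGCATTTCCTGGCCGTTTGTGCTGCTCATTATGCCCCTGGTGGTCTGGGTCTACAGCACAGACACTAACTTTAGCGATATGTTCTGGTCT
Atp2a2-202: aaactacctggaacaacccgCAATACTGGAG
The long form held 82.8% of Atp2a2 TPM in CAST and 81.3% in B6, and the short form 17.1% in CAST and 18.7% in B6, so the mix of forms was nearly the same.

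For Atp2a3 the mix was less alike. Atp2a3-201 held 67.2% of the gene's TPM in CAST and 50.7% in B6. Atp2a3-203, which skips an exon of 73 bases near the end, held 16.5% in CAST and 28.04% in B6. On scaled counts the difference of the gene sat mostly in the second of these. Atp2a3-201 had 57929 counts in CAST and 49382 in B6, a log2 ratio of -0.06 (-0.08 to -0.04). Atp2a3-203 had 14030 counts in CAST and 26884 in B6, a ratio of -1.23 (-1.26 to -1.20). On TPM with 1 added the gene was at -0.81, and transcripts annotated as processed, which are noncoding, had 17.6 TPM in CAST and 51.7 TPM in B6. Intervals of single transcripts, here and below, do not cover how reads were divided among transcripts that share exons. Atp2a3-207 keeps that exon and extends it, and held 6.70% of TPM in CAST and 5.61% in B6. The exon is printed because its skipping or extension is what separates these forms (GRCm38, chr11:72989475-72989560, plus strand, 5′ to 3′, with the 13 bases that only Atp2a3-207 includes in capitals).
Atp2a3 exon: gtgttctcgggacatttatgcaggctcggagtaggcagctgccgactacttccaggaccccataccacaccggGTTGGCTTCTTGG

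**Figure D2:**
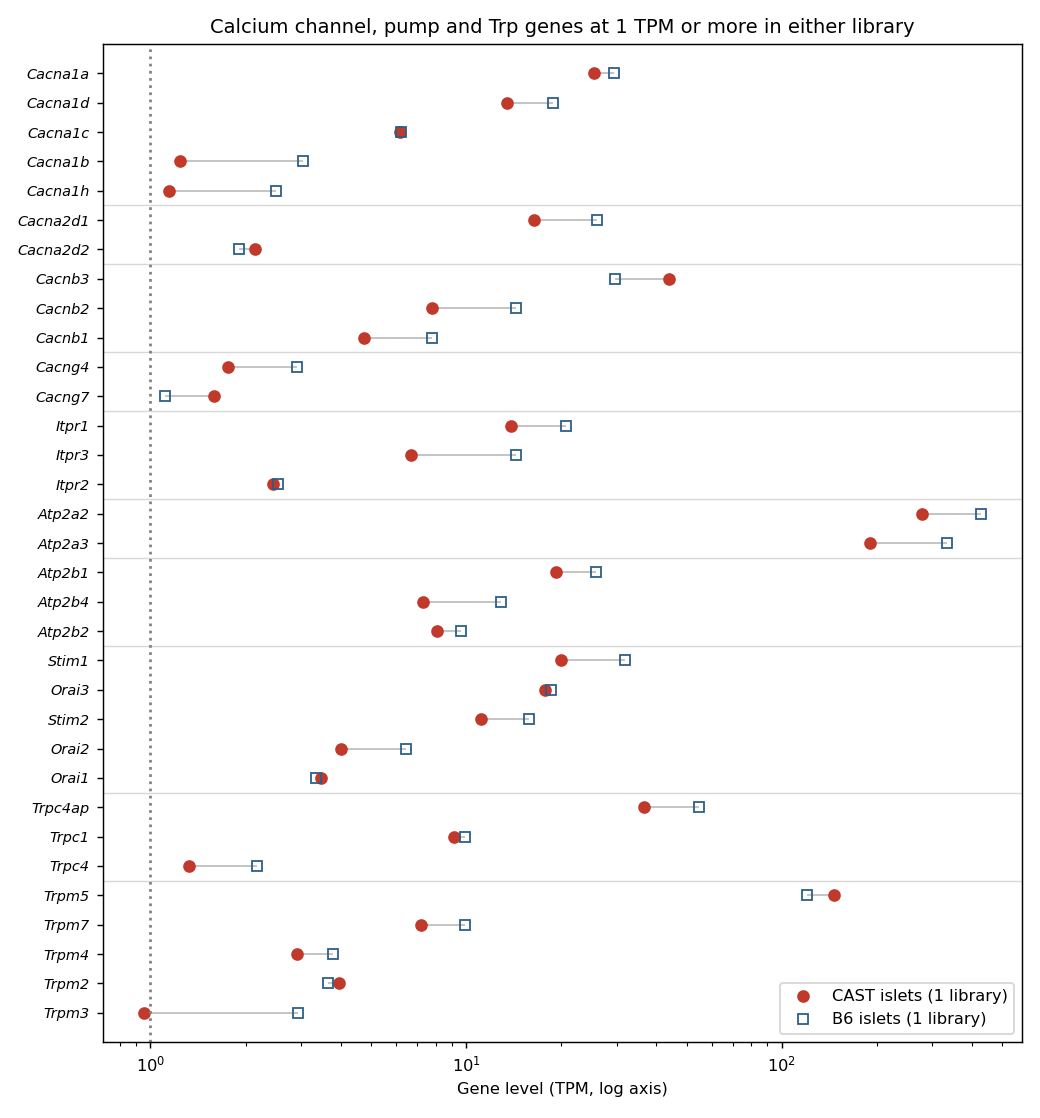
TPM on a log axis for each of the 33 members at 1 TPM or more in either library, with CAST as filled circles and B6 as open squares (1 library each, so no error bars). Atp2a2, Atp2a3 and Trpm5 lie above 100 TPM in both libraries, and Trpm5, Cacnb3 and Cacnb2 are examples of genes with clearly separate points, with 146.0 against 120.3, 44.0 against 29.7 and 7.82 against 14.3 TPM for CAST against B6.

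The pumps that expel calcium through the plasma membrane were far lower than the SERCA genes on the TPM scale. Atp2b1, the most widely expressed of them, had 19.2 TPM in CAST and 25.8 TPM in B6 and a log2 ratio of -0.08 (-0.12 to -0.04). Atp2b4 had 7.32 TPM in CAST and 12.9 TPM in B6, a ratio of -0.44 (-0.50 to -0.39). Atp2b2 had 8.07 TPM in CAST and 9.63 TPM in B6, and its ratio of 0.07 (0.01 to 0.13) was -0.08 with total counts as scaling and -0.23 on TPM. Atp2b1 thus held most of this pump family in both libraries, 55.3% of its TPM in CAST and 53.2% in B6. Atp2b3, with 68 counts in CAST and 46 in B6, was at 0.149 TPM in CAST and 0.162 TPM in B6.

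Voltage-gated calcium channels are built around an alpha1 subunit that forms the pore, and the type of current follows from it. The summed counts of the 10 alpha1 genes had a log2 ratio of -0.02 (-0.04 to 0.01), which hides members on both sides of 0. Cacna1a, the pore of P/Q-type channels, had 25.4 TPM in CAST and 29.5 TPM in B6 and a ratio of 0.20 (0.15 to 0.24), or -0.21 on TPM. Cacna1d, an L-type pore, had 13.5 TPM in CAST and 18.9 TPM in B6, a ratio of -0.13 (-0.17 to -0.10). Cacna1c, the other main L-type pore of beta cells, had 6.18 TPM in CAST and 6.23 TPM in B6, a ratio of 0.33 (0.26 to 0.40), or -0.01 on TPM. On levels, Cacna1a came first, Cacna1d second and Cacna1c next among the alpha1 genes in both libraries. Short noncoding transcripts weigh on the first place: the coding transcripts of Cacna1a alone had 12.4 TPM in CAST and 13.6 TPM in B6, under the 13.5 and 18.9 TPM of Cacna1d, all of whose transcripts with reads were coding.

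The widest differences among alpha1 genes were in members of low level. Cacna1b, the N-type pore of nerve endings, had 1029 counts (1.24 TPM) in CAST and 1553 counts (3.04 TPM) in B6, a log2 ratio of -0.88 (-0.998 to -0.77). Cacna1h, a T-type pore that opens at low voltage, had 639 counts (1.14 TPM) in CAST and 1007 counts (2.49 TPM) in B6, a ratio of -0.94 (-1.09 to -0.80) that falls just inside 2-fold. Cacna1i, another T-type pore, had 39 counts (0.040 TPM) in CAST and 121 counts (0.193 TPM) in B6, a ratio of -1.91 (-2.48 to -1.39), or 3.75-fold lower in CAST. All these were lower in CAST. Cacna1g, the remaining T-type gene, had 291 counts in CAST and 226 in B6 and a ratio of 0.08 (-0.18 to 0.33), so its interval spans 0. Cacna1e, the R-type pore, had 67 counts in CAST and 49 in B6, which is 0.053 TPM in CAST and 0.060 TPM in B6. Cacna1f, of the retina, had 45 counts in CAST and 52 in B6, and Cacna1s, of skeletal muscle, 5 in CAST and 0 in B6.

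Cacna1d, on chromosome 14, has a pair of exons of 104 bases each that its 2 annotated transcripts with reads use one at a time. Cacna1d-201 held 75.3% of the gene's TPM in CAST and 58.2% in B6, and Cacna1d-202 held 24.7% in CAST and 41.8% in B6. Counts of Cacna1d-201 were 9138 in CAST and 6387 in B6, a log2 ratio of 0.23 (0.18 to 0.27), and counts of Cacna1d-202 were 2874 in CAST and 4399 in B6, a ratio of -0.90 (-0.97 to -0.83). On scaled counts the 2 transcripts thus lay on opposite sides of 0, while the whole gene was at -0.46 on TPM with 1 added. They also differ in their first and last exons, so the shares do not come from these exons alone, and the gene shares 589 exon bases with Chdh on the opposite strand, which had 185 counts in CAST and 112 in B6. The pair is printed to show how close the sequences are that separate the transcripts: 22 of 104 bases differ, an identity of 78.8% (GRCm38, chr14:30171956-30172059 for 201 and chr14:30171296-30171399 for 202, minus strand, 5′ to 3′, with the bases that differ in capitals).
Cacna1d-201: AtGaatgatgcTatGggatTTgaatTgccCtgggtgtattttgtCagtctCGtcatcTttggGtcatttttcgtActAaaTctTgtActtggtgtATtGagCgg
Cacna1d-202: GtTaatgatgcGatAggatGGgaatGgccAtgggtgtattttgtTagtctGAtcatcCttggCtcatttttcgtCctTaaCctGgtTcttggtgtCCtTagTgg

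The main transcript, the one with the largest share of a gene's TPM, was compared for the 27 members with several transcripts and at least 100 counts both in CAST and in B6. It was the same in 23, and in 2 (7.41%, against 1.48% of all such genes) it differed with a loss of 30 or more percentage points for the main transcript of B6. These were Cacna1h and Cacnb4, and in both the annotated sequences limit what the shares can show. For Cacna1h, the share of Cacna1h-205 was 0.52% in CAST and 56.5% in B6, and that of Cacna1h-201 was 62.6% in CAST and 16.1% in B6. The 2 annotated transcripts have 0 differing bases over the 8220 bases of Cacna1h-201, because the annotation places the same 4 bases on either side of 1 intron, and Cacna1h-205 has 10 more bases at its 3′ end. The junction is printed to show this, with 20 bases on each side of these 4 bases in capitals, from GRCm38 chromosome 17, minus strand, 5′ to 3′ (the capitals are at chr17:25378856-25378859 for 201 and chr17:25380221-25380224 for 205).
Cacna1h-201: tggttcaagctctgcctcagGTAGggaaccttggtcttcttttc
Cacna1h-205: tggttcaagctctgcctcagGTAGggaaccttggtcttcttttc
Almost no read can separate such transcripts, so the shares show how the quantification divided reads. Cacnb4, an auxiliary beta subunit gene, had 140 counts in CAST, of which Cacnb4-202 held 48.5% of TPM and Cacnb4-206 51.5%, and 100 counts in B6, all of them on Cacnb4-202. Its longest transcript matches the opposite-strand gene A430018G15Rik, which had 373 counts in CAST and 414 in B6, over 1171 bases at 100% identity, so its counts are uncertain.

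**Figure D3:**
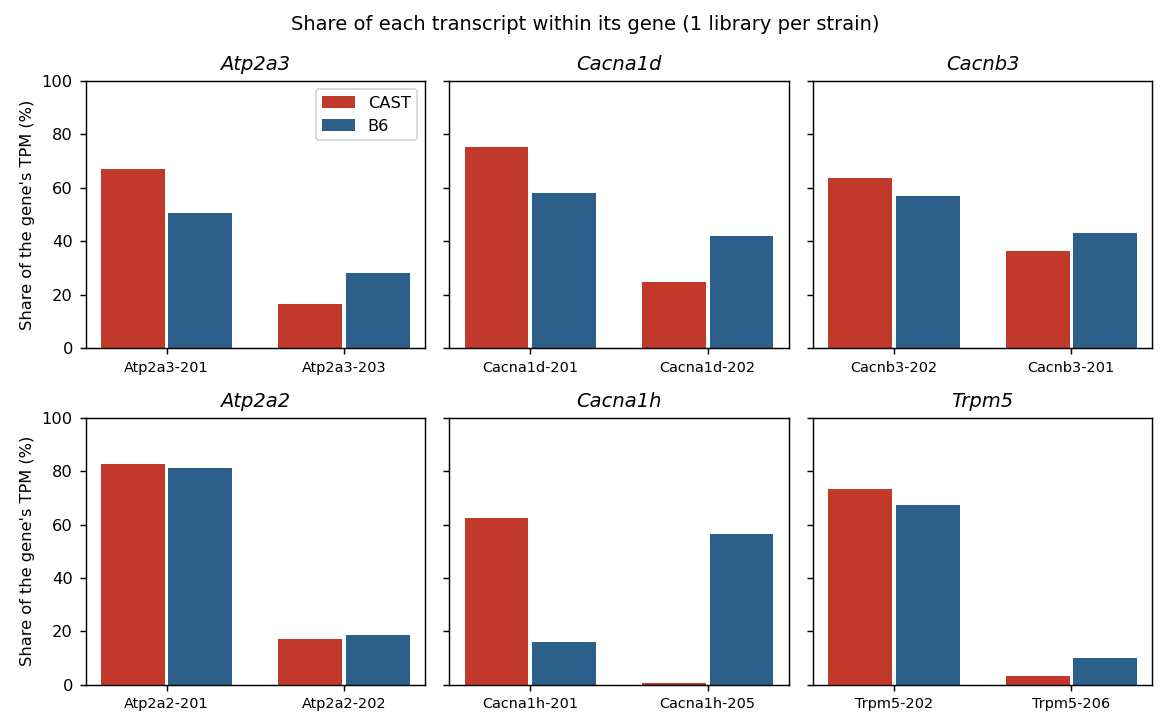
Share of the gene's TPM (percent, axis from 0 to 100) held by a pair of transcripts of Atp2a3, Cacna1d, Cacnb3, Atp2a2, Cacna1h and Trpm5, with the CAST bar left of the B6 bar (1 library each). The Atp2a2 pair is nearly level (82.8% against 81.3% for Atp2a2-201), Cacna1d-202 is lower in CAST (24.7% against 41.8%), and the wide Cacna1h gap is between transcripts of identical sequence over 8220 bases.

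Beta subunits bind the pore from the inside, bring it to the membrane and set its gating. Among the voltage-gated channel members at 5 TPM or more in both libraries, Cacnb3 had the widest difference on scaled counts, while on TPM with 1 added its log2 ratio was 0.55 and those of Cacnb2 (-0.80) and Cacna2d1 (-0.64) were wider. Cacnb3 (ENSMUSG00000003352, chromosome 15, 98630840 to 98644529, plus strand) had 11686 counts (44.0 TPM) in CAST and 5097 counts (29.7 TPM) in B6, a log2 ratio of 0.91 (0.86 to 0.96), or 1.88-fold higher in CAST. It was the fourth of the members by TPM in CAST and the sixth in B6. Cacnb2 lay on the other side, with 7.82 TPM in CAST and 14.3 TPM in B6 and a ratio of -0.56 (-0.63 to -0.48). Cacnb1 had 4.73 TPM in CAST and 7.82 TPM in B6, a ratio of -0.37 (-0.48 to -0.27). The make-up of the family therefore differed: Cacnb3 held 77.5% of beta subunit TPM in CAST and 57.01% in B6, and Cacnb2 13.8% in CAST and 27.6% in B6.

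Cacnb3 is read from 2 start sites that give its transcripts different first coding exons. Cacnb3-202 starts upstream and had 7294 counts in CAST and 2828 in B6, a log2 ratio of 1.08 (1.02 to 1.14). Cacnb3-201 had 4391 counts in CAST and 2269 in B6, a ratio of 0.66 (0.59 to 0.74). Transcripts of both starts were thus higher in CAST, and Cacnb3-202 held 63.7% of the gene's TPM in CAST and 56.9% in B6. The first coding exons and the windows before both starts are printed because the reads divide between them (plus strand, 5′ to 3′). The coding exons are from GRCm38, chr15:98632479-98632520 for 202 and chr15:98635169-98635213 for 201, with the start codon in capitals.
Cacnb3-202: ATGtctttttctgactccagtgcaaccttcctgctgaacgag
Cacnb3-201: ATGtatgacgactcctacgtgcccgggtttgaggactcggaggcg
The windows are the 250 bases before each RefSeq start in GRCm38.p6, chr15:98632078-98632327 for the upstream start and chr15:98634517-98634766 for the other, with motif matches in capitals.
Cacnb3 upstream start: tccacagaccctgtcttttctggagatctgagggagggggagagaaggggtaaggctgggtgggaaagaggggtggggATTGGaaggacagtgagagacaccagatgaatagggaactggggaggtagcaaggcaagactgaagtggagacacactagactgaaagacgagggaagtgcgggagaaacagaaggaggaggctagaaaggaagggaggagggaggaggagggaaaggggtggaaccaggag
Cacnb3 downstream start: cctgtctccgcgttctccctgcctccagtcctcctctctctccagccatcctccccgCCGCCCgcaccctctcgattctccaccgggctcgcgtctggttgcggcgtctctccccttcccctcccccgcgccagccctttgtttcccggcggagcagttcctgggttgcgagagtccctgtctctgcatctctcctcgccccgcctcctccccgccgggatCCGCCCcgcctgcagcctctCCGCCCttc
On either strand, the GC box GGGCGG occurred 0 times in the upstream window and 3 times in the downstream one, and at least once in 32.7% of all 32851 promoter windows of that length. CCAAT occurred once in the upstream window and 0 times in the downstream one, and in 33.8% of all windows. TATAAA (12.4% of all windows), TGACGTCA (1.55%) and CACGTG (6.02%) were in neither window, and none of these motifs shares bases with another match here. Of the members, 55 had such a window, 71 windows in all, and of these GGGCGG was in 43.7%, CCAAT in 28.2%, TATAAA and CACGTG each in 7.04% and TGACGTCA in 0%. A match is a description of the letters and not a site.

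The alpha2delta subunits, which sit outside the membrane and raise the number of channels there, were led by Cacna2d1 in both libraries. It had 16.4 TPM in CAST and 26.0 TPM in B6, a log2 ratio of -0.33 (-0.37 to -0.30), and held 86.7% of the family's TPM in CAST and 89.8% in B6. Cacna2d2 had 2.15 TPM in CAST and 1.91 TPM in B6, a ratio of 0.53 (0.39 to 0.67). Cacna2d4 was lower in CAST, with 45 counts (0.078 TPM) there and 162 counts (0.437 TPM) in B6, a ratio of -2.12 (-2.65 to -1.65), or 4.36-fold lower in CAST, the widest of the members with 100 or more counts. It is a gene known from the retina, and both levels were under 1 TPM. Cacna2d3 had 106 counts in CAST and 146 in B6, a ratio of -0.75 (-1.13 to -0.38).

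The gamma family holds a muscle channel subunit and the Tarps, which escort glutamate receptors in neurons. Cacng4 and Cacng7, both Tarps, were the members at 1 TPM or more. Cacng4 had 1.76 TPM in CAST and 2.92 TPM in B6, a log2 ratio of -0.39 (-0.55 to -0.22). Cacng7 had 340 counts (1.59 TPM) in CAST and 153 counts (1.11 TPM) in B6, a ratio of 0.86 (0.58 to 1.15). Markers of Schwann cells and neurons summed to 126 TPM in CAST and 115 TPM in B6, with 5 of 7 above a log2 ratio of 0. That sum was made mostly of Snap25 (106.9 TPM in CAST, 86.8 TPM in B6). What part such cells had was not tested. Cacng2, the founding Tarp, had 52 counts in CAST and 73 in B6, and the other 5 genes of the family had at most 32 counts in CAST and 22 in B6.

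**Figure D4:**
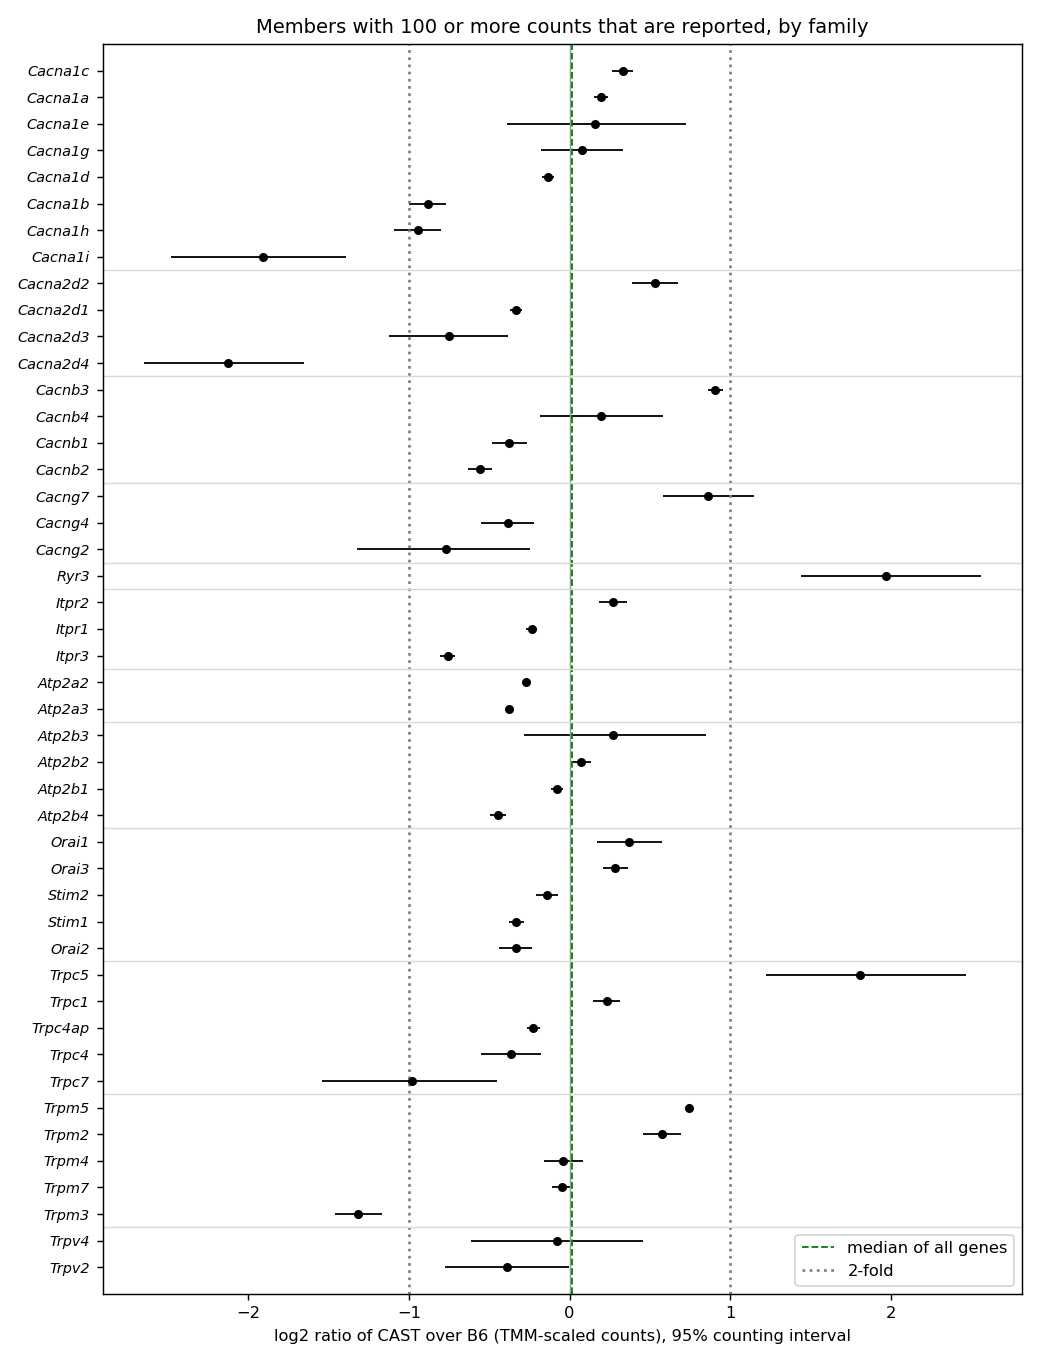
Log2 ratio (CAST over B6, TMM-scaled counts) with 95% counting intervals for the members with 100 or more counts that are reported here, grouped by family, with dotted lines at 2-fold and a dashed line at the median of all genes (0.02). Cacnb3 at 0.91 and Cacnb2 at -0.56 stand on opposite sides within 1 family, as do Trpm5 at 0.74 and Trpm3 at -1.31, and the genes past 2-fold mostly have wide intervals.

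Release from the endoplasmic reticulum runs through IP3 receptors and ryanodine receptors. Itpr1 was the highest IP3 receptor gene, with 13.8 TPM in CAST and 20.7 TPM in B6 and a log2 ratio of -0.24 (-0.27 to -0.20). Itpr3, a receptor type known from beta cells and acinar cells, had 5980 counts (6.68 TPM) in CAST and 8286 counts (14.4 TPM) in B6, a ratio of -0.76 (-0.81 to -0.71), or 1.69-fold lower in CAST. Itpr2, a type known from acinar cells and liver, had 2.44 TPM in CAST and 2.53 TPM in B6, a ratio of 0.27 (0.19 to 0.36), or -0.04 on TPM. Itpr3 was lower in CAST, where summed acinar and beta cell markers (the latter mostly Ins2) were higher and summed alpha and delta cell markers lower. What part these cell types had was not tested. Itpr3 made up 29.0% of IP3 receptor TPM in CAST and 38.1% in B6. Itpr3os, which shares 233 exon bases with Itpr3 on the opposite strand, had 7 counts in CAST and 6 in B6.

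Ryanodine receptor RNA was scarce in both libraries. Ryr2, the cardiac type, which has also been described in beta cells, had 36 counts in CAST and 21 in B6. Its log2 ratio was 0.48 (-0.33 to 1.34), at 0.021 TPM in CAST and 0.019 TPM in B6. Ryr3, the type of brain and several other tissues, had 164 counts (0.212 TPM) in CAST and 34 counts (0.096 TPM) in B6, a log2 ratio of 1.97 (1.44 to 2.56), or 3.91-fold higher in CAST. Ryr1, the skeletal muscle type, had 9 counts in CAST and 0 in B6. It was 2.46-fold higher in CAST when B6 is set to the floor of 3 counts per library. The counting interval of its log2 ratio began at 0.69. All had log2 ratios above 0 at levels of at most 0.212 TPM, but the interval of Ryr2 spans 0. Ryr3 shares 916 exon bases with Aven on the opposite strand, which had 814 counts in CAST and 745 in B6, and reads of such a pair cannot be told apart without a known strand setting.

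On scaled counts, store-operated entry genes differed by less than 1.3-fold, with members on both sides of 0. On TPM with 1 added, their log2 ratios ran from -0.65 (Stim1) to 0.04 (Orai1). Stim1, the main sensor of reticulum calcium, had 19.9 TPM in CAST and 31.8 TPM in B6, a log2 ratio of -0.33 (-0.38 to -0.28). Stim2, a sensor that responds to smaller losses, had 11.2 TPM in CAST and 15.8 TPM in B6, a ratio of -0.14 (-0.21 to -0.07). Of the Orai pores, Orai3 was the highest, with 17.8 TPM in CAST and 18.5 TPM in B6 and a ratio of 0.28 (0.21 to 0.36), or -0.06 on TPM. Orai1, the best known pore, had 3.46 TPM in CAST and 3.34 TPM in B6, a ratio of 0.37 (0.17 to 0.58). Orai2 had 4.01 TPM in CAST and 6.43 TPM in B6, a ratio of -0.33 (-0.44 to -0.23). All 5 genes of this group were above 1 TPM in both libraries.

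Among the Trp channels, Trpm5 stood apart by its level. Trpm5 (ENSMUSG00000009246, chromosome 7, 143069153 to 143094642, minus strand) encodes a channel for monovalent cations that opens on a rise in intracellular calcium and is known from taste cells and beta cells. It had 33000 counts (146.0 TPM) in CAST and 16138 counts (120.3 TPM) in B6, a log2 ratio of 0.74 (0.72 to 0.77), or 1.67-fold higher in CAST. It was the third of the members by TPM in both libraries and held 90.7% of Trpm TPM in CAST and 85.4% in B6.

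The reads of Trpm5 were assigned almost wholly to transcripts annotated as retained introns, and the direction of the difference rests on them. Such transcripts held 98.2% of the gene's counts in CAST (98.1 to 98.4) and 95.7% in B6 (95.4 to 96.0). Trpm5-202, made of the last exons, had 19893 counts in CAST and 9695 in B6, and Trpm5-207, which begins past the first exons of the full-length form, had 12139 in CAST and 5450 in B6. The only full-length coding transcript, Trpm5-201 with 25 exons over 4123 bases, had 64 counts in CAST and 0 in B6. These transcripts share most of their exons with the coding form, as the map of Trpm5 transcripts shows, so a count on them need not be a read within an intron. The first and last exons of Trpm5-202 and Trpm5-207 also reach past the matching exons of the coding form. Over coding transcripts alone the gene had 469 counts in CAST and 653 in B6, and the log2 ratio was -0.77, of the opposite sign. Most of those reads were on the short 3′ form Trpm5-206, with 316 counts in CAST and 504 in B6, of whose 726 bases 217 lie in the exon of Tssc4 on the opposite strand. Tssc4 had 6354 counts in CAST and 6497 in B6. Trpm5-202 and Trpm5-207 share 0 bases with it.

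**Figure D5:**
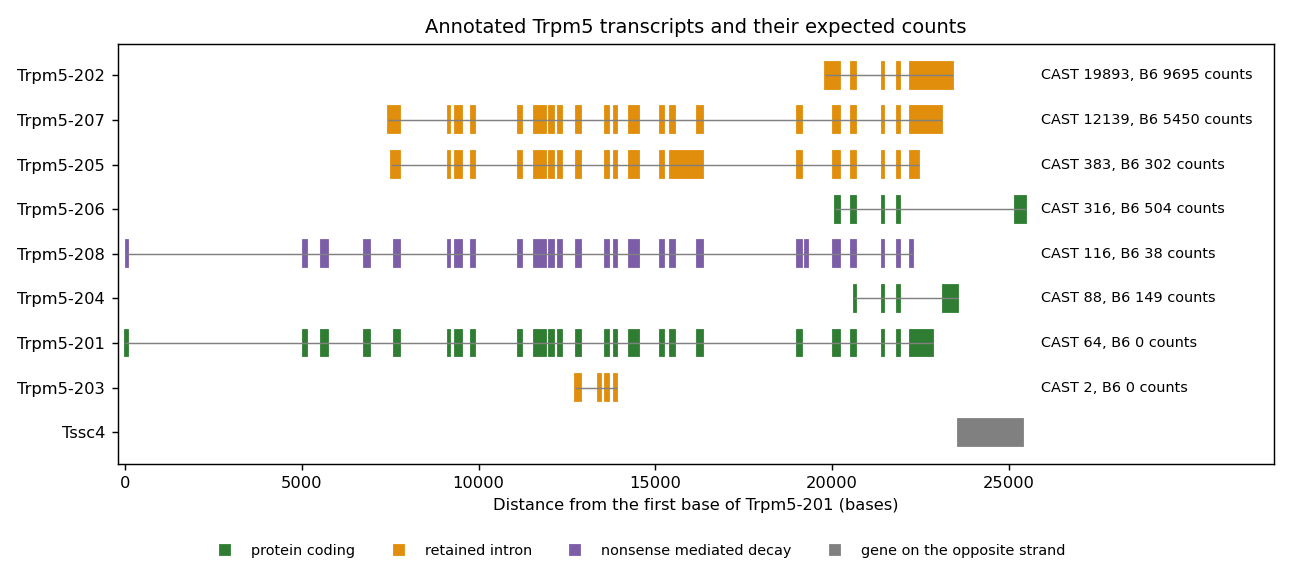
Exons (boxes) of the 8 annotated Trpm5 transcripts and of Tssc4 on the opposite strand, drawn to scale by distance in bases from the first base of Trpm5-201, coloured by annotated type, with the expected counts in CAST and B6 at the right. Trpm5-202 and Trpm5-207 carry most counts (19893 and 12139 in CAST, 9695 and 5450 in B6), and the last exon of Trpm5-206 overlaps Tssc4. The exons of Trpm5-202 and Trpm5-207 overlap those of Trpm5-201. Their first exons begin earlier than the matching ones, and their last exons run to 23425 and 23113, against 22853.

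The other Trpm genes were at least an order of magnitude lower than Trpm5 in TPM. Trpm7, a channel with a kinase domain that admits magnesium and calcium, had 7.18 TPM in CAST and 9.95 TPM in B6, a log2 ratio of -0.05 (-0.11 to 0.01). Trpm4, the nearest relative of Trpm5 and also opened by calcium, had 2.91 TPM in CAST and 3.80 TPM in B6, a ratio of -0.04 (-0.16 to 0.08). The intervals of both span 0. Trpm2, a channel opened by ADP-ribose and oxidative stress, had 1687 counts (3.96 TPM) in CAST and 926 counts (3.66 TPM) in B6, a ratio of 0.58 (0.46 to 0.69). That difference lay in a noncoding transcript: Trpm2-202, annotated as a processed transcript, had 924 counts in CAST and 285 in B6, while coding transcripts alone gave 347 counts in CAST and 279 in B6 and a ratio of 0.03.

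Trpm3 was the member past 2-fold with the most counts. Trpm3, a channel opened by the steroid pregnenolone sulfate and by heat, had 572 counts (0.956 TPM) in CAST and 1165 counts (2.94 TPM) in B6, a log2 ratio of -1.31 (-1.46 to -1.17), or 2.49-fold lower in CAST. Each of its 3 main coding transcripts was lower in CAST: Trpm3-203 had 294 counts in CAST and 667 in B6, Trpm3-206 had 115 in CAST and 230 in B6, and Trpm3-201 had 145 in CAST and 205 in B6. Trpm6, a magnesium channel of kidney and gut, had 2 counts in CAST and 36 in B6, a ratio of -4.13 (-7.56 to -2.50) at 0.086 TPM or less. Trpm1 had 9 counts in both libraries, and Trpm8, the cold receptor, 2 in CAST and 1 in B6.

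In the Trpc group the highest gene was not a channel. Trpc4ap had 36.5 TPM in CAST and 54.7 TPM in B6, a log2 ratio of -0.22 (-0.26 to -0.19), and made up 76.5% of the group's TPM in CAST and 80.5% in B6. Trpc1 was the highest channel of the group, with 9.15 TPM in CAST and 9.91 TPM in B6 and a ratio of 0.23 (0.15 to 0.32), or -0.10 on TPM. Trpc4 had 1.33 TPM in CAST and 2.17 TPM in B6, a ratio of -0.36 (-0.55 to -0.18). The other channels of this group described here were under 1 TPM. Trpc5, the close relative of Trpc4, had 121 counts (0.295 TPM) in CAST and 28 counts (0.106 TPM) in B6, a ratio of 1.81 (1.22 to 2.47), or 3.50-fold higher in CAST.

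Trpc6 and Trpc7, channels opened by diacylglycerol, lay on opposite sides of 0. Trpc7 had 48 counts in CAST and 78 in B6, a log2 ratio of -0.98 (-1.54 to -0.45), just inside 2-fold. Trpc6 had 53 counts in CAST and 21 in B6, a ratio of 1.03 (0.29 to 1.85) from fewer than 100 counts.

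The Trpv channels, which include the capsaicin and heat receptors and the calcium channels of epithelia, were all under 1 TPM. Trpv2 had 110 counts in CAST and 118 in B6, a log2 ratio of -0.39 (-0.78 to -0.003), and Trpv4, which responds to cell swelling, had 66 in CAST and 57 in B6, a ratio of -0.08 (-0.61 to 0.46). Trpv6, an epithelial calcium channel, had 29 counts in CAST and 19 in B6. Trpv1 had 1 count in CAST and 3 in B6, and Trpv3 had 10 in CAST and 11 in B6.

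Genes that work beside the members were looked at as 96 genes in 8 lists taken from general knowledge. Of the 79 with 100 or more counts, 3 were at least 2-fold higher in CAST (Efcab9, Plcd3 and Camk4), against 7.18% of all genes. In B6, 4 were at least 2-fold higher (Mcub, Fkbp1b, Jph1 and Nfatc2), against 5.99% of all genes. On the log2 ratio 43 were above 0 and 36 below, while 51.7% of all genes were above 0. The median was 0.05, against 0.02 for all genes. The widest was Mcub, which encodes an inhibitory subunit of the mitochondrial calcium uniporter. It had 36 counts (0.322 TPM) in CAST and 364 counts (4.60 TPM) in B6, a ratio of -3.61 (-4.16 to -3.13). None of the other 11 genes of mitochondrial uptake and release was past 2-fold: Smdt1, another uniporter subunit, was at -0.61, Vdac1 of the outer membrane at 0.24 and the uptake regulator Micu3 at 0.21, and the median of the list was 0.05.

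Of 14 regulators of calcium channels with 100 or more counts, 3 were past 2-fold. Of these, 1 was higher in CAST (against 7.18% of all genes) and 2 in B6 (against 5.99% of all genes). Fkbp1b, which binds and steadies ryanodine receptors, had 3442 counts (38.0 TPM) in CAST and 6971 counts (119.8 TPM) in B6, a log2 ratio of -1.31 (-1.37 to -1.25). Efcab9, a partner of a sperm calcium channel, had 93 counts in CAST and 20 in B6, a ratio of 1.90 (1.22 to 2.70). Jph1, which ties the reticulum to the plasma membrane in muscle, had 44 counts in CAST and 81 in B6, a ratio of -1.16, and Rrad, an inhibitor of voltage-gated channels, was at 0.41. Of these 4, only Fkbp1b was above 3 TPM. The median of the regulators was -0.01.

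Of the genes that make IP3, 11 had 100 or more counts with a median log2 ratio of 0.21. Plcd3 was past 2-fold, with 136 counts in CAST and 37 in B6, a ratio of 1.58 (1.06 to 2.15), and Plcd1 was at 0.92. Plcb4 was at -0.69 and Plcg1 at -0.54, so phospholipases lay on both sides. Among 19 calcium sensors and kinases, with a median of 0.01, Camk4, a nuclear calmodulin kinase, had 641 counts in CAST and 166 in B6, a ratio of 1.66 (1.41 to 1.92). Nfatc2, a transcription factor switched on by calcineurin, had 1602 counts in CAST and 3208 in B6, a ratio of -1.29 (-1.38 to -1.20). Camkk1 was at 0.73 and Camkk2 at -0.79, although both encode kinases that act on calmodulin kinases.

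The remaining lists had no gene past 2-fold. Among 4 exchangers the median log2 ratio was 0.20, and all lay above 0: the sodium-calcium exchanger genes Slc8a1 at 0.35 and Slc8a2 at 0.23, and Slc24a2 at 0.18 and Slc24a3 at 0.07. Among 8 other intracellular pumps and channels the median was 0.08, with the Golgi pump Atp2c1 at 0.36, the reticulum leak channel Tmco1 at 0.28, and the endolysosomal channels Mcoln1 at -0.40 and Tpcn1 at -0.31. Among 6 other Trp family genes the median was 0.03, with Pkd2 at 0.23, Pkd1 at -0.14 and Mcoln1 again lowest, while Trpa1, an irritant receptor, had 344 counts in CAST and 141 in B6, a ratio of 1.00 just under 2-fold. Among 8 calcium buffers the median was -0.09, with Hspa5 and Casq2 at 0.30, Rcn1 at -0.27, and Calb1, a cytosolic buffer, at -0.76 with 6.59 TPM in CAST and 14.6 TPM in B6.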

How the data were processed

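Each deposited file lists transcripts with an expected count and the fraction of all transcript molecules, which the authors obtained with RSEM on GRCm38, per the submitters' processing notes. Which aligner, versions, kit, strand setting and annotation were used is not given in the sources. The second value was read as a fraction because it sums to 1 in each deposited file and because expected count over fraction rose with transcript length (rank correlation 0.965 over 10747 transcripts in CAST and 0.962 over 9697 in B6). The fraction times 1000000 is TPM. CAST reads carry variants against the reference used for both libraries, which can cost them matches.

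Deposited expected counts were summed per Ensembl gene ID and rounded. Names, positions and transcript types came from GENCODE M21 (GRCm38), which matched 37607 of 38924 IDs. The unmatched IDs held 0.172% of counts in CAST and 0.176% in B6. TMM factors from edgeR 4.0.16 (R 4.3.3) were 0.947 for CAST and 1.056 for B6, and 0.5 was added to scaled counts before the log2 ratio was taken, where a gene had 100 counts in the libraries together. The CAST share of these counts gave the 95% interval (exact, Clopper-Pearson), which was turned into a ratio. The computation was tested on simulated data. Alternatives were DESeq2 1.42.0 size factors, total counts, total counts without hormone and acinar genes, TPM with 1 added, other count filters, thinning of CAST to the B6 total, another constant and coding transcripts only.

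The members, lists and thresholds were chosen with earlier results of these data known. Text names every member at 1 TPM in either library or past or just inside 2-fold, and the 2 highest and 2 lowest genes of each list with 100 or more counts; other members and the transcripts named were added after their values were seen. Some genes under this rule are counted but not reported here by name. Copies were sought with minimap2 2.31, and promoter windows are RefSeq's. Other software was matplotlib 3.10.9, pandas 2.3.3, scipy 1.17.1 and numpy 2.4.6 on Python 3.11.15.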

Additional observations from a re-analysis of the deposited data

How the results depend on the processing

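Members at least 2-fold higher in CAST numbered 2 (7.18% of all genes), and 0 on TPM with 1 added (3.14% of all genes), 0 with a filter of 500 counts (4.87%) and 6 with no filter beyond 1 count (16.5%). Members at least 2-fold higher in B6 numbered 4 (5.99% of all genes), and 7 with total counts as scaling (7.92%), 2 on TPM with 1 added (4.99%) and 1 with 500 counts (3.74%). The median log2 ratio of -0.14 was -0.29 with total counts and -0.29 on TPM, where the median of all genes was -0.14 and -0.26. Members with another main transcript numbered 2, and 4 with 20 counts in each library (Atp2b3 and Trpc7 added). A filter changes which members are counted, and the cause of the other shifts was not tested. Of 374 alternative values of 38 named members, 291 stayed within the counting interval. The sign differed on TPM for 6 (Atp2b2, Cacna1a, Cacna1c, Itpr2, Orai3 and Trpc1), with total counts for Atp2b2, and with coding transcripts only for Trpm5 (-0.77) and Stim2 (0.06), over 80% of whose counts lie on transcripts without a type in the annotation. No paired analysis was possible because each strain has 1 library. Depth limits the 20 members under 100 counts, whose differences were mostly within counting error.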
